A study of Monodelphis domestica and Mus musculus with 2 samples.

Results

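Calcium-binding proteins of neurons were followed across the primary visual cortex (V1) of a marsupial, the opossum Monodelphis domestica, and of the mouse. The genes were taken by symbol: Calb1 (calbindin), Calb2 (calretinin), Pvalb (parvalbumin), Hpca (hippocalcin), Hpcal1, Hpcal4, Ncald (neurocalcin delta) and Vsnl1 (visinin-like 1). The mouse table held 8 of these 8 symbols among 61317 features, and the opossum table held 5 of them among 30613 features. Pvalb, Hpcal4 and Vsnl1 were not matched by symbol in the opossum and were not analysed there.

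Each species was represented by 1 animal and 1 Stereo-seq section 10 µm thick, cut from a block in which several coronal slices were embedded together. Stereo-seq captures polyadenylated RNA on a barcoded surface, so that every unique molecular identifier (UMI, a count of 1 captured molecule) has a position. The opossum was a male of about 6 months, and its RNA integrity number was 7.1. The mouse was a wild-type C57BL/6J male of about postnatal day 40, and its RNA integrity number was given only as above 9. No transgene or treatment is reported for either animal. V1 regions were outlined by hand by the authors, 3 in the opossum with 4806 cells used and 4 in the mouse with 9127 cells used, out of 80369 and 120239 segmented cells. The median V1 cell of the opossum held 1326 UMIs and that of the mouse 1305, and the 2 libraries shared 0 cell barcodes. By the authors' account the V1 regions began at the upper edge of layer 2/3 and ended at the lower edge of layer 6, without layer 1. The top of a region is therefore not the cortical surface. A segmented cell is an outline drawn on the section and can hold RNA of its neighbors. Regions of 1 section are not replicates, so no test between groups was possible, and the spread over regions is given as a description.

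These proteins bind calcium through EF-hands, helix-loop-helix folds in which the loop holds the ion. Calbindin, calretinin and parvalbumin are cytosolic buffers that shape the size and time course of calcium signals, and antibodies to them have long been used to separate classes of cortical interneurons. Hippocalcin, its homologs Hpcal1 and Hpcal4, neurocalcin delta and visinin-like 1 are neuronal calcium sensors, which carry a lipid anchor that many of them expose once calcium is bound, and so move to membranes. Calbindin is also known from pyramidal neurons of the upper cortical layers and from granule cells of the dentate gyrus, and hippocalcin takes its name from the hippocampus, where it is abundant.

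The 5 sensors are close relatives, which matters for telling their reads apart. The second of the 3 EF-hand loops that a sequence pattern found in each of them is shown here to let the reader see how alike the genes are. Each loop spans 36 coding bases within 1 exon of the reference transcript (mouse build GRCm39), read 5′ to 3′ on the strand of the gene, and capitals mark bases that differ from Hpca.
Hpca: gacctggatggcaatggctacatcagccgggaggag
Hpcal1: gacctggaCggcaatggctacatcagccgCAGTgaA
Ncald: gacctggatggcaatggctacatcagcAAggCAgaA
Vsnl1: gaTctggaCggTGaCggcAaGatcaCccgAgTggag
Hpcal4: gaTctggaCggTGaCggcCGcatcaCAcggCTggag
The Hpca loop lies at chr4:129012175-129012210 on the minus strand, in exon 1 of its transcript. The Hpcal1 loop lies at chr12:17836496-17836531 on the plus strand in exon 2, the Ncald loop at chr15:37397319-37397354 on the minus strand in exon 2, the Vsnl1 loop at chr12:11382020-11382055 on the minus strand in exon 3, and the Hpcal4 loop at chr4:123082980-123083015 on the plus strand in exon 4. The loop of Ncald differed from that of Hpca at 5 bases, that of Hpcal1 at 6, that of Vsnl1 at 10 and that of Hpcal4 at 11. By codons, 1 of 12 coded for another residue in Hpcal1, 2 in Ncald, and 4 each in Vsnl1 and Hpcal4.

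Over the whole coding sequence, Hpca and Hpcal1 shared 86.0% of aligned bases, Hpcal4 and Vsnl1 82.4%, Hpcal1 and Ncald 80.1%, and Hpca and Ncald 79.3%. Calb1 and Calb2 shared 62.7%. No run of 75 bases was common to the reference transcripts of any 2 members, so reads of that length from the mouse members could be told apart where they matched perfectly. In the mouse annotation, all 8 members are protein-coding genes. Calb1 spans chr4:15881155-15908085 (plus strand, 4 loops found), Calb2 spans chr8:110864128-110894881 (minus strand, 5 loops) and Pvalb spans chr15:78075314-78091149 (minus strand, 2 loops). Hpca spans chr4:129005306-129015916 (minus strand), Hpcal1 chr12:17739796-17841964 (plus), Hpcal4 chr4:123076662-123088495 (plus), Ncald chr15:37363739-37792843 (minus) and Vsnl1 chr12:11375161-11488178 (minus), with 3 loops found in each. Calb1, Calb2 and Pvalb overlap no other annotated gene. Hpca overlaps Tmem54 and Vsnl1 overlaps Smc6 on the opposite strand, Hpcal4 and Vsnl1 each overlap a long noncoding RNA gene there too, Hpcal1 overlaps a long noncoding RNA gene on its own strand, and Ncald overlaps 7 genes on its own strand and 7 on the other. Whether the counting used strand is not given in the sources used here, so UMIs of these overlapping genes remain uncertain.

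Levels are given as UMIs of a gene per 10000 UMIs of all genes in the same cells, with an exact Poisson interval at 95% that covers counting error only. They are not scaled by transcript length, so levels of different genes are not compared with each other.

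Among the buffers, Calb1 reached 2.37 per 10000 in opossum V1 (interval 2.26–2.49, 1645 UMIs) and 1.11 in mouse V1 (1.05–1.17, 1393 UMIs). By region, opossum Calb1 stood at 2.28, 2.33 and 2.64, and mouse Calb1 at 1.11, 1.21, 1.02 and 1.13. Every opossum region was above every mouse region. Calb2 was scarce in V1 of both animals, at 0.208 per 10000 in the opossum (144 UMIs; regions 0.1998, 0.153 and 0.335) and 0.121 in the mouse (152 UMIs; regions 0.153, 0.0972, 0.0864 and 0.118). Opossum region 2 and mouse region 1 had nearly the same Calb2 level. Pvalb, measured in the mouse only, reached 1.67 per 10000 (1.60–1.74, 2090 UMIs) and stood at 1.71, 1.36, 1.92 and 1.60 in the 4 regions.

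Among the sensors, Hpca showed the widest gap between the animals. In the mouse it reached 7.25 per 10000 (7.10–7.40, 9073 UMIs), with 7.40, 6.79, 7.31 and 7.25 by region. In the opossum it reached 0.120 (0.0953–0.148), which was only 83 UMIs in all V1 cells, with 0.0945, 0.118 and 0.175 by region. Ncald was also higher in the mouse, at 6.97 (regions 7.31, 6.40, 6.82 and 6.98) against 3.29 (3.18, 3.24 and 3.62). Hpcal1 went the other way, at 0.873 in the opossum (0.857, 0.898 and 0.852) against 0.284 in the mouse (0.277, 0.306, 0.286 and 0.279). For Hpca, Ncald and Hpcal1 the regions of the 2 animals did not overlap. Hpcal4 (2.41; regions 2.43, 2.31, 2.43 and 2.45) and Vsnl1 (9.61; regions 8.97, 9.75, 10.9 and 9.40) were measured in the mouse only, and both varied little between regions.

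The study compared the species, so each shared member was set against the 10575 symbols that both tables hold. The mouse level was divided by the opossum level, and a symbol counted as past the fold at 2 or more in either direction, among 7090 symbols with at least 200 UMIs over both animals. Of 5 shared members, 2 were past the fold in the mouse, where 18.5% of all tested symbols were, and 2 were past it in the opossum, where 24.4% of all tested symbols were. The ratio was 60.5 for Hpca, above that of 99.2% of the tested symbols, and 2.12 for Ncald, above that of 83.0%. Calb1 was 2.13-fold and Hpcal1 3.07-fold higher in the opossum. Calb2 was 1.71-fold higher in the opossum and did not pass the fold. The median ratio of all tested symbols was 0.864. Counting over shared symbols only raised the Calb1 ratio from 0.469 to 0.548, which no longer passed the fold. The opossum genome and gene ends used by the authors, the RNA quality, the age and the species each differ between the 2 libraries and cannot be told apart. Opossum Hpca was as low outside V1 as inside it (0.120 per 10000 in both).

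**Figure D1:**
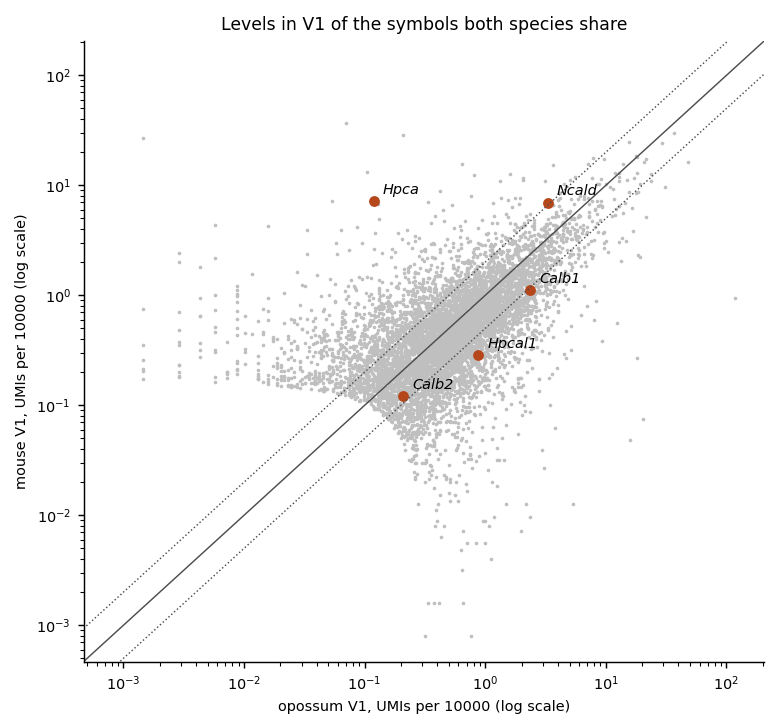
Level of each shared symbol with at least 200 UMIs over both animals, in UMIs per 10000 on log axes. Opossum V1 is on the x axis and mouse V1 on the y axis, with the shared calcium-binding genes marked. The solid line is equality and the dotted lines are 2-fold, and symbols with 0 UMIs in one species are not drawn. Hpca lies far above the upper dotted line, Ncald just above it, and Calb1 and Hpcal1 below the lower one.

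More members passed the fold between depths than between cell classes. Depth was scaled to the height of each region, and each region was cut into 3 slabs of equal height, of which the upper was compared with the lower. A gene counted as past the fold when its ratio was 1.5 or more in 1 direction in the pooled cells and lay on the same side of 1 in every region, among genes with at least 100 UMIs in V1. In the opossum, 4 of 5 members had enough UMIs, and 2 of these, Calb1 and Hpcal1, were higher in the upper slab, against 7.45% of 8846 genes. None of the 4 was higher in the lower slab, against 7.29% of genes. In the mouse, 8 of 8 members had enough UMIs, and 2 of these, Calb1 and Calb2, were higher in the upper slab, against 4.88% of 11402 genes. Ncald, 1 of the 8, was higher in the lower slab, against 3.93% of genes. The median upper-to-lower ratio was 1.23 over the 5 opossum members, Hpca below the minimum included, and 0.980 over all opossum genes tested. In the mouse it was 1.18 over the 8 members and 0.997 over all genes tested.

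Calb1 was the upper-layer member in both animals. In the opossum it stood at 3.05 per 10000 in the upper slab and 0.577 in the lower slab, a ratio of 5.29 (interval 4.42–6.36), with 4.12, 6.18 and 6.39 in the 3 regions. In the mouse it stood at 2.09 and 0.497, a ratio of 4.22 (3.63–4.91), with 3.08, 6.42, 5.50 and 4.40 in the 4 regions. The shapes of the 2 profiles were not alike. Over 10 equal bins from the top of the region to the bottom, opossum Calb1 ran 3.03, 3.22, 2.95, 3.44, 4.74, 3.90, 2.09, 0.636, 0.456 and 0.452. It peaked at mid-depth in the fifth bin (regions 4.41–5.49) and was lower from the seventh bin on. Mouse Calb1 ran 2.58, 2.23, 1.86, 1.25, 0.815, 0.672, 0.815, 0.512, 0.652 and 0.272, highest in the first bin and already low at mid-depth. In the fifth bin the mouse regions spanned 0.632–1.01, below all opossum regions. Opossum Calb1 was 2.43-fold higher in the upper than in the lower slab when regions were cut into 2.

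Calb2 was too scarce for a firm profile. In the mouse its ratio was 2.17 (1.42–3.34), from 67 UMIs in the upper slab and 36 in the lower, with 2.20, 3.51, 1.15 and 2.43 by region. In the opossum it was 0.926 (0.584–1.46), with 1.17, 0.381 and 1.503, and its bins ran from 0.0879 to 0.315 with the highest level in the sixth. Mouse Pvalb formed a band at mid-depth in the pooled cells, running 1.02, 1.41, 1.43, 1.76, 2.23, 2.24, 2.31, 1.74, 1.53 and 0.991 over the 10 bins. Its bins 5 to 7, with 2.23 to 2.31, were the highest, and the first and the last bins were the lowest. Regions spanned 1.08–2.86, 1.48–2.77 and 2.03–3.14 in bins 5 to 7, against 0.166–1.23 in the first and 0.527–1.19 in the last. The range of bin 5 thus overlapped those of both ends. Its upper-to-lower ratio of 0.912 (0.812–1.02) does not show this band, because both ends were low.

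Hpcal1, a homolog of hippocalcin, was concentrated at the top of the opossum V1 regions. It stood at 1.52 per 10000 in the upper slab and 0.585 in the lower slab, a ratio of 2.59 (2.13–3.16), with 2.27, 3.12 and 2.32 by region. The first 2 bins held 2.27 and 1.72, while the other 8 bins lay between 0.402 and 0.728. In the mouse its ratio was 1.36 (1.05–1.75), with 1.12, 1.44, 1.97 and 1.32 by region, which was on the same side in all regions but did not reach the fold. It reached the fold among glutamatergic cells only (1.66) and without region 1 (1.55).

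Ncald took different depth profiles in the 2 animals. In the mouse it stood at 5.52 per 10000 in the upper slab and 9.27 in the lower slab, 1.68-fold higher in the lower slab, with upper-to-lower ratios of 0.620, 0.571, 0.575 and 0.584 by region. Its bins stayed between 4.83 and 6.02 in the upper 6 bins and then climbed through 7.25, 8.98 and 9.26 to 10.0 at the bottom. In the opossum it was high at both ends, running 5.43, 4.70, 3.86, 2.16, 1.54, 1.71, 1.60, 2.12, 3.67 and 5.77. The opossum upper-to-lower ratio of 1.23 (1.12–1.35) went one way in regions 1 and 2 (1.23 and 1.55) and the other way in region 3 (0.807). The 2 uppermost opossum bins had region ranges of 4.62–5.69 and 3.79–5.95, and the last bin had 5.51–6.57. All of these lay above the ranges of the fifth and the seventh bins.

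The other sensors were measured well only in the mouse. Hpca was 1.41-fold higher in the upper slab (1.34–1.48; regions 1.42, 1.58, 1.30 and 1.38), at 8.83 against 6.27 per 10000, on the same side in every region but under the fold. Its highest bin was the third with 9.51, and its lowest the last with 5.13. Hpcal4 was 1.41-fold higher in the lower slab (upper-to-lower 0.739, 0.872, 0.591 and 0.657 by region), with a low of 1.40 in the fourth bin and a high of 4.25 in the last. Vsnl1 was even over depth, at 9.78 against 9.68 per 10000 (ratio 1.01, regions 1.01, 1.10, 0.989 and 0.980), and its 10 bins stayed between 8.78 and 10.4. Opossum Hpca, with its 83 UMIs, showed no usable profile (ratio 1.12, interval 0.645–1.92).

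**Figure D2:**
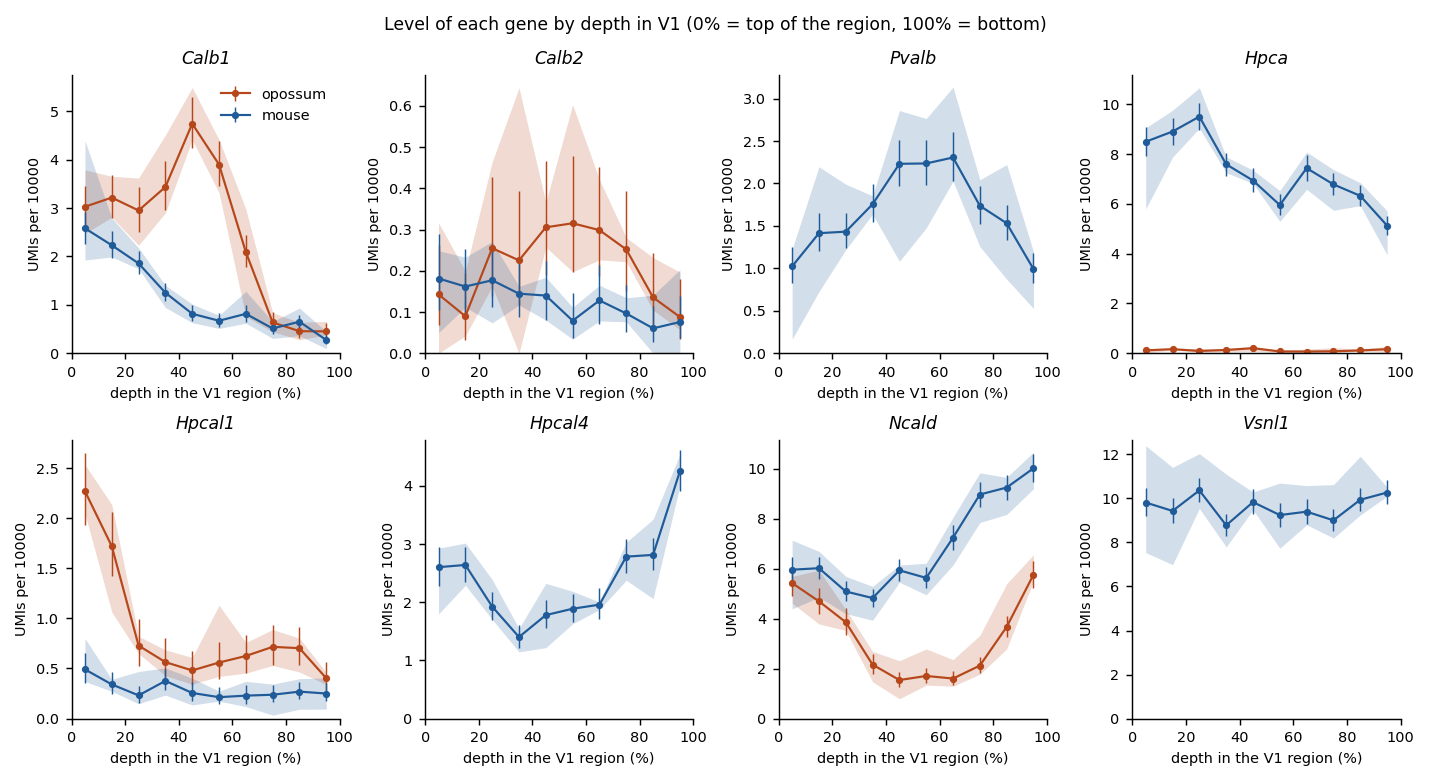
Level of each member, in UMIs per 10000, over 10 equal bins of relative depth from the top of the V1 regions to the bottom, in each animal. Points are pooled cells, bars are exact 95% Poisson intervals and the band is the range over V1 regions. Opossum Calb1 peaks in the fifth bin at 4.74 while mouse Calb1 is highest in the first at 2.58, opossum Ncald is high at both ends, and mouse Ncald climbs toward the bottom.

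Other cells also change with depth, and their part in these ratios was not tested. Mbp, a myelin protein of oligodendrocytes, was lower in the upper slab of both animals, at 16.3 against 43.9 per 10000 in the opossum (ratios 0.435, 0.333 and 0.348 by region) and at 6.13 against 13.8 in the mouse (0.606, 0.314, 0.283 and 0.425 by region). The summed level of the upper-layer markers Cux1 and Cux2 was 4.48 against 1.40 in the opossum and 2.98 against 0.645 in the mouse. When glutamatergic cells alone were used, the Calb1 ratio was 5.69 for the opossum and 5.04 for the mouse, that of opossum Hpcal1 was 2.91 and that of mouse Ncald was 0.574.

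Depth trends were also taken cell by cell, a measure that cannot be ranked against the ratios of summed levels. Over glutamatergic cells, Spearman's rho of a cell's level with depth was -0.159 for Calb1 and -0.138 for Hpcal1 in the opossum, and -0.181 for Calb1, 0.202 for Ncald and 0.112 for Hpcal4 in the mouse. After each cell had been thinned to 300 UMIs these were -0.0836, -0.0874, -0.105, 0.101 and 0.0272. UMIs per cell themselves changed with depth (rho 0.209 for the opossum and 0.277 for the mouse), so values near 0 are not read as a direction. Cells of 1 section share a library, and no p-value is given.

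Levels by subclass followed the same lines. Subclass labels are the authors' own, from a nearest-neighbor match to a single-nucleus atlas of the same species, and they were set from the expression of the same cells, so levels by subclass are descriptions. IT marks intratelencephalic neurons, PT pyramidal tract, CT corticothalamic and NP near-projecting neurons. Of the opossum subclasses IT_A, IT_B and IT_C, IT_B alone mapped strongly onto a mouse subclass, L4, in the study's transfer of labels. IT_A and IT_C mapped weakly, but the study still paired IT_A with mouse L2/3 and IT_C with mouse L5IT. It also reported that every subcluster of IT_A correlated best with mouse L2/3.

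In the opossum, Calb1 was highest in IT_B (4.81, interval 3.92–5.84, regions 4.31–5.04, 126 cells), followed by Vip interneurons (3.85, from 19 UMIs), IT_A (3.26, regions 2.98–3.70), precursors (2.77), astrocytes (2.67), Sst interneurons (2.64) and Pvalb interneurons (2.02). It was lowest in L5NP (1.17), L5PT (1.10), IT_C (1.02) and L6CT (0.842, regions 0.594–1.00). Neighbors in this order overlapped in their region ranges, but IT_B and IT_A did not overlap with each other or with L6CT. A Calb1 UMI was found in 37.3% of IT_B cells (28.9–46.4%, exact binomial interval, median 1603 UMIs per cell), 28.0% of IT_A cells (25.8–30.3%, median 1365) and 10.0% of L6CT cells (7.69–12.8%, median 1750.5). Non-neuronal cells, which should lack it, gave 16.1% (13.4–19.1%, median 1155), above the L6CT share. They were not restricted by depth, while 463 of the 568 L6CT cells lay in the lower slab. The comparison is therefore not matched for depth and sets no background for L6CT. At 300 UMIs per cell the shares were 12.8%, 8.16%, 4.10% and 5.01%.

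In the mouse, Calb1 stood at 2.18 in L2/3 (regions 1.76–2.77, 1438 cells), 2.06 in Sst interneurons (0.872–2.57) and 1.19 in L4 (1.12–1.32), and it was lowest in L6CT (0.550), L5PT (0.401) and L6b (0.273, from 1 UMI). Lamp5 interneurons had 2.40, but from 10 UMIs in 35 cells. The regions of L2/3 lay above those of L4, while L2/3 and Sst cells overlapped. Pooled over depth, L4 in the mouse therefore held less Calb1 than L2/3, while IT_B in the opossum held more than IT_A. By slab, mouse L4 held 1.62 in the upper and 0.895 in the middle slab, and L2/3 held 2.58 and 0.805. Opossum IT_A held 4.39 in the middle slab, near the 4.81 of all IT_B cells. The share of cells with a Calb1 UMI was 17.9% in L2/3 (15.99–20.02%, median 1246.5 UMIs) against 8.33% in non-neuronal cells (7.12–9.67%, median 1245), and 5.98% against 2.83% at 300 UMIs per cell.

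Calb2 gave at most 0.588 per 10000 in any opossum subclass and 0.481 in any mouse subclass, from 4 and 2 UMIs. Vip cells, in which calretinin is known, held 1 Calb2 UMI in each animal, and no order of subclasses can be read.

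Pvalb in the mouse was highest in cells labelled Pvalb, at 5.59 (4.74–6.55; regions 4.75–7.58; 174 cells), and this was the only place in the order of any member, in either animal, where the region ranges of neighbors did not overlap. That label was set partly by the gene itself, so the gap is not a finding. The next subclass was L6b with 2.73 from 10 UMIs, and all others lay between 0.721 and 1.88. A Pvalb UMI was found in 43.7% of Pvalb cells (36.2–51.4%, median 1503.5 UMIs), 16.6% of Sst cells (11.3–23.0%, median 1391) and 13.5% of non-neuronal cells (11.9–15.1%, median 1245). The share in Sst cells was thus close to that in cells which should lack the gene. Opossum Pvalb was not analysed, but 354 opossum cells carried the Pvalb label, of which 142 had a glutamatergic class label, against 21 of 174 in the mouse.

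Ncald was high in deep corticothalamic neurons of both animals. In the opossum it reached 4.81 in L6CT (4.39–5.26; regions 4.44–5.43), 3.65 in oligodendrocytes, 3.55 in IT_A (3.24–3.93), 2.83 in Pvalb cells and 2.68 in astrocytes, and it was low in IT_C (2.09), IT_B (1.65, regions 1.46–1.94) and L5PT (1.44, 1.19–1.67). In the mouse it reached 10.4 in L6b (38 UMIs, 26 cells), 9.60 in L6CT (regions 8.93–10.0), 8.11 in oligodendrocytes and 7.79 in L6IT, against 5.95 in L2/3, 5.39 in L4 (4.93–5.88) and 4.71 in L5PT (4.30–4.94). In both animals L6CT lay above L5PT in every region, and likewise above IT_B in the opossum and L4 in the mouse. The share of cells with an Ncald UMI was 45.4% in opossum L6CT (41.3–49.6%, median 1750.5 UMIs) against 22.3% in non-neuronal cells (19.2–25.6%, median 1155). In the mouse it was 66.6% in L6CT (63.9–69.2%, median 1567) against 50.4% in non-neuronal cells (48.1–52.7%, median 1245). L6CT cells thus held more UMIs in both animals. At 300 UMIs per cell the shares were 13.2% against 7.13% in the opossum and 22.7% against 18.1% in the mouse.

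Opossum Hpcal1 was highest among well-sampled subclasses in IT_A, at 1.25 (1.11–1.41; regions 1.11–1.35), followed by Pvalb cells (0.901) and astrocytes (0.850), and it was low in L6CT (0.431, regions 0.324–0.577) and IT_B (0.424). Microglia had 1.39, from 5 UMIs. Pooled over depth, the 2 upper neuronal groups of the opossum thus differed in both genes, with Calb1 higher in IT_B and Hpcal1 higher in IT_A. IT_A cells of the middle slab alone stood at 4.39 for Calb1 and 0.463 for Hpcal1, near the 4.81 and 0.424 of IT_B. In the mouse, Hpcal1 lay between 0.152 and 0.721 in all subclasses, the highest from 3 UMIs, and all neighbors overlapped. Opossum Hpca gave at most 0.292, from 4 UMIs, and 0 UMIs in 6 subclasses, among them IT_B with 0 of 126 cells (exact binomial upper limit 2.89% of cells with a UMI) and Sst cells.

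For the remaining sensors of the mouse, Hpca was high in L2/3 (8.41, regions 8.23–8.74) and L4 (7.77, 7.58–7.93) and lower in L6CT (6.12, 5.83–6.27), Sst cells (5.98) and L5PT (5.37, 4.37–6.41). Hpcal4 was highest in L6CT (3.30, regions 3.02–3.64) and lower in L2/3 (2.34), L4 (1.75, 1.40–1.85), L5PT (1.74) and Pvalb cells (1.47). Vsnl1 ran from 10.98 in L5IT and 10.7 in L5PT to 8.41 in L6IT among subclasses with over 100 UMIs, and neighbors in that order overlapped in their regions. L5PT neurons stood near the bottom of the order for Calb1, Ncald, Hpca and Hpcal4 and near the top for Vsnl1.

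**Figure D3:**
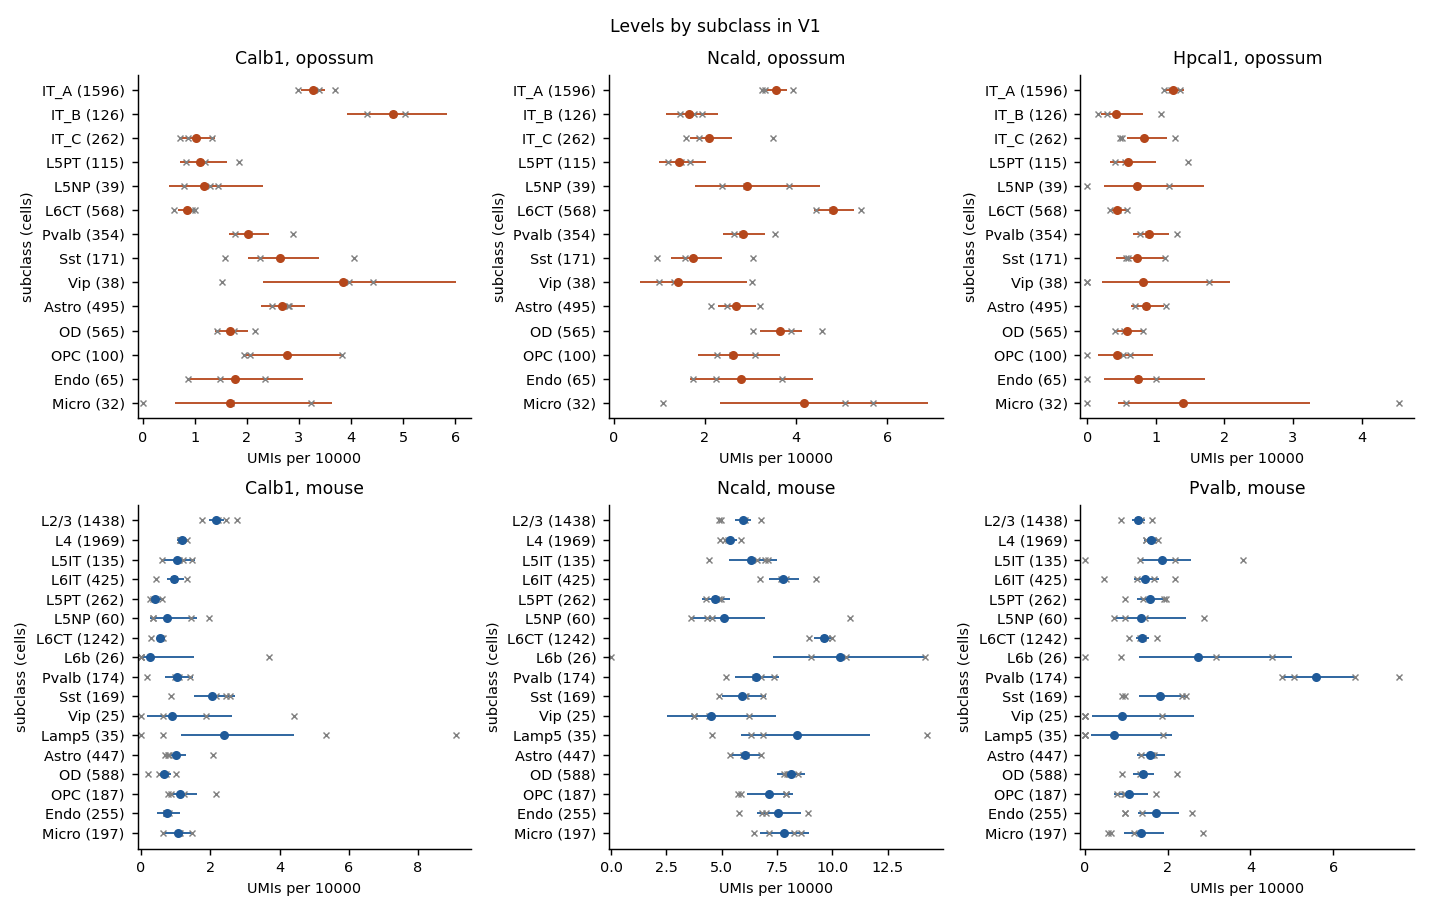
Level of opossum Calb1, Ncald and Hpcal1 and of mouse Calb1, Ncald and Pvalb, in UMIs per 10000, in every V1 subclass with at least 25 cells. Points are pooled cells with exact 95% Poisson intervals and crosses are V1 regions. Opossum Calb1 is highest in IT_B at 4.81, mouse Pvalb in Pvalb cells at 5.59, and Ncald is high in L6CT of both animals.

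Depth also went with levels inside one subclass label, in subclasses of over 500 neurons split by slab, a split added after values had been seen. Opossum IT_A cells held 3.05 Calb1 per 10000 in the upper slab (986 cells), 4.39 in the middle slab (515 cells) and 0.323 in the lower slab (95 cells, 5 UMIs). The same IT_A cells held 1.73, 0.463 and 0.259 Hpcal1, and 4.52, 1.82 and 1.94 Ncald. The regions of the upper and middle slabs did not overlap for either sensor (1.59–1.88 against 0.388–0.521 for Hpcal1, and 4.02–5.23 against 1.497–2.08 for Ncald). Hpcal1 and Ncald were therefore high in IT_A cells of the upper slab, and Calb1 was higher in IT_A cells of the middle slab (regions 4.34–4.50 against 2.64–3.65).

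Cells labelled opossum L6CT outside the lower slab held far more Calb1, at 5.48 in the upper slab (45 cells) and 3.90 in the middle slab (60 cells), than the 463 in the lower slab, at 0.404. Mouse L2/3 cells held 2.58, 0.805 and 0.376 Calb1 from the upper to the lower slab, and mouse L6CT cells held 2.89, 0.866 and 0.396. Mouse Ncald went the other way, from 5.04 through 5.46 to 7.58 in L4 cells and from 5.99 through 6.87 to 10.0 in L6CT cells. Whether cells with a label far from its usual layer are mislabelled or hold RNA of their neighbors was not tested.

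Cell class separated few members. GABAergic cells were set against glutamatergic cells by class label, with 331 and 3752 opossum cells and 497 and 6245 mouse cells. In the opossum, 0 of 4 tested members were higher in GABAergic cells, against 6.07% of genes, and 0 of 4 were higher in glutamatergic cells, against 10.4% of genes. In the mouse, 1 of 8 was higher in GABAergic cells, against 2.63% of genes, and 0 of 8 were higher in glutamatergic cells, against 5.31% of genes. The member was Pvalb, at 3.17 against 1.497 per 10000, a ratio of 2.11 (1.83–2.44) with 2.38, 2.24, 2.41 and 1.203 by region. The median ratio was 0.805 over the 5 opossum members, Hpca included, and 0.946 over the 8 mouse members, and over all genes 0.979 and 0.992.

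Calb1 and Calb2, although known as interneuron markers, did not part the classes here. Calb1 was at 1.95 in GABAergic and 2.47 in glutamatergic cells of the opossum (ratio 0.789, interval 0.642–0.962; regions 0.801, 0.708 and 1.02), and at 1.34 and 1.19 in the mouse (ratio 1.13, 0.902–1.39; regions 1.35, 1.56, 0.689 and 0.878). The Calb2 ratio was 1.01 in both, from 11 and 8 UMIs in GABAergic cells. Among the sensors, opossum Ncald (0.803, 0.676–0.948) and mouse Hpcal4 (0.757, 0.629–0.904) were lower in GABAergic cells in every region without reaching the fold. GABAergic markers separated the classes, whose labels were set from the expression of the same cells. The Gad1 ratio, for the enzyme that makes GABA, was 4.92 for the opossum and 2.48 for the mouse, and that of Gad2 was 5.58 and 2.94. The glutamatergic marker Sv2b stood at 1.13 in GABAergic and 2.78 in glutamatergic cells of the opossum, past the fold. In the mouse, Slc17a7 and Sv2b summed to 12.2 in GABAergic and 14.9 in glutamatergic cells, and 0 of 2 passed the fold. Sst, a neuropeptide of interneurons, was 4.03-fold and 1.94-fold higher in GABAergic cells.

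Neuronal cells did not hold more of these neuronal genes than non-neuronal cells by the fold. In the opossum 0 of 4 tested members were higher in neuronal cells, against 9.53% of genes, and 0 of 4 in non-neuronal cells, against 7.14% of genes. In the mouse 0 of 8 were higher in neuronal cells, against 3.17% of genes, and 0 of 8 in non-neuronal cells, against 2.88% of genes. The Calb1 ratio of neuronal to non-neuronal cells was 1.26 in the opossum (regions 1.09, 1.58 and 1.02) and 1.43 in the mouse (1.35, 1.77, 1.32 and 1.42). That of Hpca was 0.987 and that of Vsnl1 1.02 in the mouse, with levels of 7.32 and 9.42 in non-neuronal cells. The median ratio was 1.25 over the 5 opossum members, Hpca included, and 0.962 over the 8 mouse members, and over all genes 1.01 and 0.990.

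Neuronal markers differed in how far they separated the classes. Snap25, a synaptic protein of all neurons, had a ratio of 1.15 for the opossum and 1.04 for the mouse, and Slc17a7, the vesicular glutamate transporter, stood at 10.4 per 10000 in neuronal and 10.8 in non-neuronal cells of the mouse. The synaptic vesicle gene Sv2b stood at 2.63 against 1.40 in the opossum, 1.88-fold higher in neuronal cells and past the fold. Among glial markers, Mbp of oligodendrocytes had a ratio of 0.546 for the opossum and 0.586 for the mouse, past the fold in both. Slc1a2 of astrocytes had a ratio of 0.246 for the opossum, past the fold, and 0.759 for the mouse, short of it. Of 4 astrocyte markers, 4 in the opossum and 3 in the mouse were past the fold toward non-neuronal cells. Their summed mouse level was 13.9 per 10000 in neuronal and 19.6 in non-neuronal cells. Because Snap25 and mouse Slc17a7 were at similar levels in both classes, levels of the members in glial subclasses are not read as expression by glia. This holds for Ncald in oligodendrocytes, at 3.65 for the opossum and 8.11 for the mouse.

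**Figure D4:**
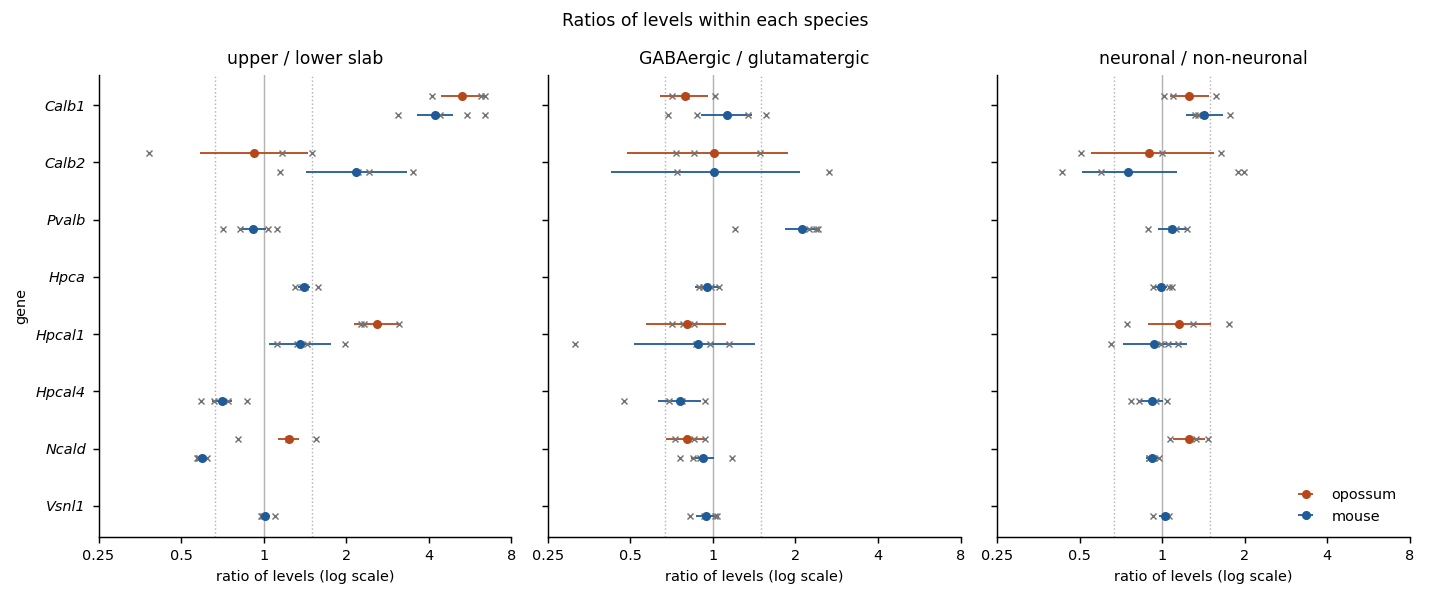
Ratios of levels for the members with at least 100 UMIs in V1, on a log axis, for upper over lower slab, GABAergic over glutamatergic and neuronal over non-neuronal cells in each animal; dots are pooled cells, bars 95% intervals of the ratio, crosses V1 regions and dotted lines the 1.5-fold limits, and regions with a ratio of 0 (mouse Calb2 in GABAergic cells of regions 2 and 3) are not drawn. Calb1 is far above the limit in the depth comparison of both animals, and Pvalb is past the limit between classes in the mouse.

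Genes most like each member were sought by the correlation of depth profiles, over 30 points in the opossum (3 regions of 10 bins) and 40 in the mouse (4 regions of 10 bins), among genes with at least 500 UMIs in V1. Bins of 1 region share a library and neighboring bins share cells of the same layers, so the values are descriptions. Opossum Calb1 was closest to LRRTM1 (Pearson's r 0.858), ARPP21 (0.830) and SCG2 (0.829), and mouse Calb1 to Rtn4rl1 (0.855), Rasgrf2 (0.850) and Gabra2 (0.836). The genes near opossum Ncald included GPM6A (0.851) and ID2 (0.833). Mouse Ncald was closest to Mmp17 (0.912), 3110035E14Rik (0.903) and Gadd45a (0.893).

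Opossum Hpcal1 was closest to UNC5C (0.806), BLVRB (0.799) and EPHA3 (0.798), mouse Hpca to Alcam (0.801), Camk2n1 (0.787) and Tsc22d1 (0.782), and mouse Hpcal4 to Nptx1 (0.826), Rprm (0.787) and Ctgf (0.755). Mouse Pvalb had looser neighbors in Peg13 (0.6996), Syt1 (0.663) and Atf4 (0.653), and Vsnl1 had none above 0.519 (Fbxw2). Calb2 in both animals, mouse Hpcal1 and opossum Hpca rest on 83 to 356 UMIs, and their closest genes (FEZ1 0.702 and Klhl29 0.671 for Calb2, Sowaha 0.618 for Hpcal1, MRPL51 0.553 for Hpca) are given for completeness. With 20 bins in place of 10, the closest 3 genes changed in part or in full for every member of either animal. Between members, mouse Hpcal4 and Ncald had r 0.726, mouse Calb1 and Hpca 0.571, and mouse Calb1 and Ncald -0.569, while opossum Hpcal1 and Ncald had 0.427 and opossum Calb1 and Ncald -0.349.

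Outside V1 the members spread over the section in other patterns, which shows where V1 stands in their range. Calb2 was lower in V1 than outside it in both animals, at 0.208 against 0.980 per 10000 in the opossum (4.72-fold) and 0.121 against 0.378 in the mouse (3.12-fold). Over squares of 250 µm, the V1 level of Calb2 lay above 30.2% of opossum squares (median 0.503) and above 51.4% of mouse squares (median 0.114, highest 9.84), so the mouse V1 level was near that of a median square. Hpcal1 was likewise lower in V1, at 0.873 against 1.44 in the opossum (1.65-fold) and 0.284 against 0.614 in the mouse (2.16-fold). Calb1 was 2.07-fold higher in V1 than outside in the opossum (2.37 against 1.15) but 1.19-fold lower in V1 in the mouse (1.11 against 1.32). Ncald was 1.36-fold higher in V1 of the opossum and 1.14-fold higher in the mouse. Mouse Pvalb was 1.61-fold and Vsnl1 1.22-fold higher in V1, Hpca 1.33-fold lower and Hpcal4 1.10-fold lower.

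In squares of 250 µm with at least 5000 UMIs, 716 for the opossum and 755 for the mouse, the highest 5% of squares for a member were set beside the markers of other brain regions. For opossum Calb1 (36 squares, 1 with V1 cells) the dentate gyrus markers C1ql2 and Prox1 were 7.57-fold and 7.03-fold above their section level. The dentate marker Dsp was scarce, at 0.0329 per 10000 against a section level of 0.0219. The thalamic marker Prkcd was also high in these squares (3.95-fold), while the thalamic markers Tcf7l2 and Lef1 stood at 1.36 and 0.382 of their section levels. For mouse Calb1 (38 squares, 2 with V1 cells) the dentate markers Dsp, C1ql2 and Prox1 were 4.50-fold, 3.47-fold and 2.83-fold above it. Opossum Calb2 squares (none with V1 cells) were high in Wfs1 (3.88-fold) and the thalamic markers Prkcd (2.99-fold) and Tcf7l2 (2.72-fold), but the thalamic marker Lef1 stood at 0.600 of its section level. The mouse Calb2 squares were high in C1ql2 (5.605-fold), Prox1 (4.28-fold) and Dsp (2.48-fold).

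Mouse Hpca reached 43.9 per 10000 in its highest square against a median of 6.73 over squares. Its top squares were high in Spink8, a marker of hippocampal pyramidal cells (4.07-fold), but Wfs1, another such marker, stood at 0.987 of its section level. Opossum Hpca reached at most 1.99 in any square. Mouse Hpcal4 squares were high in the striatal marker Drd1 (3.09-fold), but the striatal marker Ppp1r1b stood at 1.11 of its section level. In mouse Pvalb squares the GABAergic marker Gad1 was 1.52-fold and Gad2 1.04-fold its section level. Mouse Ncald squares, of which 6 of 38 held V1 cells, were high in Foxp2 (2.71-fold). The squares were chosen by the members' own levels, and a marker level beside them is a description.

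**Figure D5:**
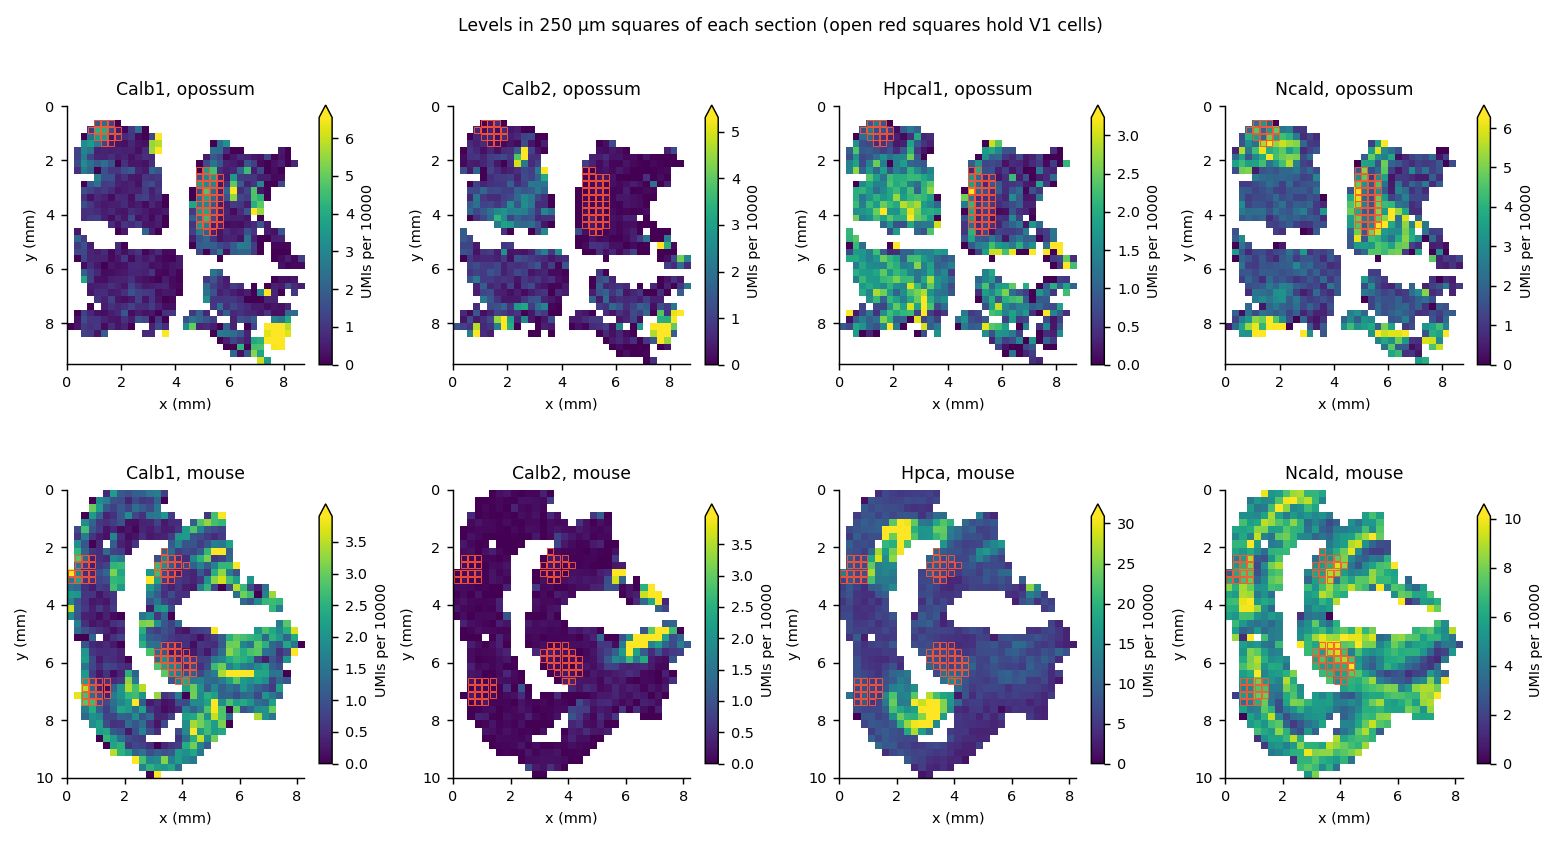
Maps of members over each section in squares of 250 µm with at least 5000 UMIs, with x and y in mm. Color gives the level in UMIs per 10000 with the scale capped at the 98th percentile, and open red squares hold V1 cells. Mouse Hpca is highest outside V1, at up to 43.9 per 10000 in a square.

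The wider family of EF-hand genes was taken from a list of 25 further genes, of which 16 were named in the opossum table and 24 in the mouse table, with 12 and 20 above the minimum of 100 UMIs. In the opossum, 3 of 12 were higher in the upper slab, against the 7.45% of all genes given above: S100a16 (3.58-fold), Necab3 (2.82-fold) and Tesc (1.90-fold). In the lower slab 2 of 12 were higher, against 7.29% of all genes, Necab1 (3.38-fold) and the potassium channel partner Kcnip1 (2.52-fold). In the mouse, 2 of 20 were higher in the upper slab, against 4.88% of all genes, Kcnip4 (1.73-fold) and S100a10 (1.66-fold), and 3 of 20 in the lower slab, against 3.93%, Necab3 (2.19-fold), Efhd1 (1.78-fold) and Efhd2 (1.56-fold). Necab3 thus went opposite ways in the 2 animals, with upper-to-lower ratios of 3.05, 2.86 and 2.31 in the opossum regions and 0.479, 0.707, 0.308 and 0.410 in the mouse regions. The median upper-to-lower ratio over the list was 1.15 for the opossum and 0.844 for the mouse.

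Kcnip1, which modulates A-type potassium channels, was the family gene that marked GABAergic cells in both animals. Its level there was 3.62-fold that of glutamatergic cells in the opossum (2.33 against 0.643 per 10000; regions 4.22, 3.10 and 4.03) and 1.89-fold in the mouse (2.42 against 1.28; regions 1.60, 3.99, 1.21 and 1.95). It was the only 1 of 12 opossum and of 20 mouse genes tested that did so, against 6.07% and 2.63% of all genes. In the opossum 2 of 12, Necab1 (3.01-fold) and Kcnip2 (1.54-fold), were higher in glutamatergic cells, against 10.4% of all genes, and in the mouse 0 of 20, against 5.31%. Neuronal cells held more Caln1 in the opossum (1.67-fold, 1 of 12, against 9.53% of all genes) and more Kcnip4 in the mouse (2.08-fold, 1 of 20, against 3.17%), and mouse non-neuronal cells more S100a16 (1.65-fold, 1 of 20, against 2.88%).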

How the data were processed

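RNA was measured by Stereo-seq in 2 samples, 1 section of opossum and 1 of mouse. Reads were mapped by the authors in the Stereo-seq Analysis Workflow, to a custom opossum genome with lengthened 3′ gene ends or to GRCm39, after the image of the section had been aligned by hand. The UMI counts of segmented cells that the authors deposited are raw, with no scaling. Their labels give the V1 region, filter, class and subclass of each cell, set in 3 rounds.

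The genes were matched by symbol, ignoring case. Cells in V1 that passed the authors' filter of 50 genes and 100 UMIs were used, with 6933475 opossum and 12522687 mouse UMIs. Counts were summed over cells and divided by all their UMIs (levels per 10000). Groups came from the labels and from relative depth in each region. The depth axis was a side of the tightest box around a region's cells, turned so that IT_A or L2/3 was uppermost and L6CT lowest, so these labels set which end is the top. No test and no p-value was possible from 1 animal of each species. Ratios have 95% intervals from counts, which cover counting error only. A ratio counted at a fold of 1.5 or more on the same side in every region, for genes with at least 100 UMIs. Between species it counted at 2 or more in pooled cells, for symbols with at least 200 UMIs over both (counts of 0 set to 3). Subclasses needed at least 25 cells. Likeness was Pearson's r over regions and 10 depth bins. Thinning to 300 UMIs left out 156 opossum and 130 mouse cells.

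The named genes are the 8 members, the 25 listed EF-hand genes, the 3 genes most like each member and markers that a result turns on, apart from genes that are not reported here. The members and lists were chosen with earlier results of these data known. Alternatives varied the cells, labels, depth split, thinning, fold, minimum and shared symbols, and left out each region. Coding sequences and positions are from GENCODE on GRCm39. The computation was tested on simulated data. Tools were pandas 2.3.3, Biopython 1.88, scipy 1.17.1, matplotlib 3.10.9 and numpy 2.4.6 under Python 3.11.15.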

Additional observations from a re-analysis of the deposited data

Results flagged for a closer look

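Ncald in neuronal over non-neuronal cells went opposite ways in the 2 animals in every V1 region. The ratio was 1.25 in the opossum (1.07, 1.33 and 1.47 by region) and 0.922 in the mouse (0.923, 0.897, 0.9751 and 0.900 by region). Neither ratio reached the 1.5-fold limit, and the difference between the animals was not tested.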

How the results depend on the processing

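With 1 animal per species, 83 to 152 UMIs for Calb2 and opossum Hpca, and regions of 1 section that are not replicates, small ratios cannot be placed. The depth calls of Calb1 in both animals and of opossum Hpcal1, and the GABAergic call of mouse Pvalb, held under every alternative run for them. With thinning to 300 UMIs, the opossum count of members higher in GABAergic cells went from 0 to 1 (Calb2, 2.33, from 5 against 24 UMIs) and that in neuronal cells from 0 to 1 (Calb1, 1.56), and rho with depth turned from 0.0201 to -0.00570 for opossum Calb2, from 0.00508 to -0.0131 for opossum Ncald and from 0.0453 to -0.00902 for mouse Vsnl1. At a minimum of 500 UMIs the mouse count higher in the upper slab went from 2 to 1, because Calb2 was no longer tested, and at a fold of 2 the mouse count higher in the lower slab went from 1 to 0 (Ncald). With glutamatergic cells only, the members higher in mouse V1 went from 2 to 1 (Ncald, 1.99), and with UMIs of shared symbols only those higher in opossum V1 went from 2 to 1 (Calb1). Leaving out 1 region in turn, the counts ranged from 0 to 1 for opossum neuronal cells (1 without region 1: Hpcal1, 1.60), from 0 to 1 for mouse glutamatergic cells (1 without region 4: Calb2, from 3 against 74 UMIs), from 2 to 3 for the mouse upper slab (3 without region 1: Hpcal1) and from 2 to 3 for members higher in opossum V1 (3 without opossum region 2 or mouse region 1). The counts that were unchanged are not listed. The cause was not tested where none is named.

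The share of all genes past the fold moved by over 1.5 times under some alternatives. At a fold of 2 it was 2.69% and 2.71% in the upper and lower slabs, 2.34% and 4.34% in GABAergic and glutamatergic cells, and 3.56% and 3.17% in neuronal and non-neuronal cells of the opossum, and 1.78%, 1.42%, 1.06%, 2.46%, 0.859% and 0.789% in the same order in the mouse. Cutting the depth into 2 slabs gave 4.36% and 4.45% in the upper and lower opossum slab. A minimum of 500 UMIs gave 3.77% in GABAergic and 3.50% in non-neuronal cells of the opossum, and 1.58% in GABAergic, 2.80% in glutamatergic and 1.24% in non-neuronal cells of the mouse, and thinning gave 5.65% in mouse neuronal cells. Without 1 region, the share reached 9.61% in GABAergic (region 2) and 17.0% in glutamatergic cells (region 2) of the opossum, and 4.999%, 9.38%, 6.09%, 5.37% and 4.604% in GABAergic, glutamatergic, lower slab, neuronal and non-neuronal cells of the mouse (region 1).

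No paired analysis was possible because each species had 1 animal.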
